A study of Mus musculus with 4 samples.

Results

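The genes described here are 8 of the 32285 genes measured in the series: Gzma, Gzmb, Gzmc, Gzmd, Gzme, Gzmf and Gzmk, which encode granzymes, and Prf1, which encodes perforin. They were chosen by name as the granule-borne killing genes of the mouse, and their values were read in cell classes gated on other markers. The RNA came from mouse tumors grown from B16F10 cells, a melanoma line, and collected on day 14, or from MC38 cells, a colon carcinoma line, and collected on day 26. Hosts were wild type (WT) or lacked the leucine-rich repeat gene Lrrc25 (Lrrc25-/-), and no host received a treatment. Each of the 4 libraries pooled tumor pieces of 100 mm3 from 3 mice of a single genotype and tumor model, so there is no replicate within a model. The labels call the cells tumor cells, but bead-isolated CD45+ cells had been added to the unsorted suspension at 5 to 1, so shares of classes reflect that step.

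Granzymes are serine proteases that cytotoxic lymphocytes store in secretory granules and release onto a target cell. Perforin forms pores in the target membrane through which granzymes reach the cytosol, where granzyme B cleaves after aspartate and sets off caspases. Granzymes A and K cleave after basic residues, and Gzmc to Gzmf are rodent genes that lie beside Gzmb.

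The libraries held 10490 barcodes (WT, B16F10), 13036 (Lrrc25-/-, B16F10), 18545 (WT, MC38) and 17661 (Lrrc25-/-, MC38), with 105338548 to 138841749 UMIs, the molecular tags that count captured transcripts. Between 76 and 176 barcodes were shared by any 2 libraries. Lrrc25 checked the genotypes: in myeloid cells it stood at 164 CPM (a gene's UMIs scaled to a class total of 1e6) in WT and 4.73 in Lrrc25-/- mice with B16F10 tumors, and at 95.01 and 2.04 with MC38 tumors. Gated CD8 T cells numbered 248, 706, 615 and 967 in the order of libraries above, with median UMIs of 4920.5, 3048.5, 4624 and 4411. Natural killer (NK) cells numbered 62, 115, 125 and 186, with median UMIs of 1811, 2441, 6868 and 5001.5. The granule gene Nkg7, which took part in no gate, was at 971 to 1796 CPM in both classes and at 5.5 CPM or less in myeloid cells. All of the values below follow the same library order unless a sentence says otherwise.

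Of the 8 genes, 7 lie in 2 clusters, whose positions are given with upstream sequences (mm10, GENCODE M21 annotation). On chromosome 14, 5 of the proteases lie on the minus strand: Gzme (ENSMUSG00000022156) at chr14:56117626-56120625, Gzmd (ENSMUSG00000059256) at chr14:56129556-56132608, Gzmf (ENSMUSG00000015441) at chr14:56205263-56211417, Gzmc (ENSMUSG00000079186) at chr14:56231441-56234656 and Gzmb (ENSMUSG00000015437) at chr14:56258838-56262260. Gzma (ENSMUSG00000023132) and Gzmk (ENSMUSG00000042385) lie on the minus strand of chromosome 13, at chr13:113093825-113100981 and chr13:113171608-113225908. Prf1 (ENSMUSG00000037202) lies alone, on the plus strand at chr10:61297833-61304680. Transcripts of Gzmd, Gzme and Gzmf are 82.9% to 90.0% identical to each other over their length and 84% to 85% identical in the last 300 bases, the end that this assay reads. Counts of these genes can therefore share reads, and the split among Gzmd, Gzme and Gzmf is uncertain.

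The 200 bases before the RefSeq start site (GRCm38.p6) are shown for Gzmc to Gzmf, which resemble each other, and for Gzmb and Gzma, which do not. Capitals mark AACCACA, a RUNX-type motif, or its reverse complement.
Gzmc: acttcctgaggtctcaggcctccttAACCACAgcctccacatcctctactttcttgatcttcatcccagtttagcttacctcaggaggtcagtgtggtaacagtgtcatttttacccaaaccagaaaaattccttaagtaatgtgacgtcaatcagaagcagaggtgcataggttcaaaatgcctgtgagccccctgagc
Gzmd: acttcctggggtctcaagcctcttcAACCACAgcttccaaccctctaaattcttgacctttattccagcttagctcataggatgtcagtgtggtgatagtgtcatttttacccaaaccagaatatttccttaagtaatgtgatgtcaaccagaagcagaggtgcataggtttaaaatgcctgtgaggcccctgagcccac
Gzme: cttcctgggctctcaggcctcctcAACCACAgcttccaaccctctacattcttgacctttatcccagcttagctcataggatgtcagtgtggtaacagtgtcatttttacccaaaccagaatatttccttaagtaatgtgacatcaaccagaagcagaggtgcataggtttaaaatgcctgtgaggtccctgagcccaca
Gzmf: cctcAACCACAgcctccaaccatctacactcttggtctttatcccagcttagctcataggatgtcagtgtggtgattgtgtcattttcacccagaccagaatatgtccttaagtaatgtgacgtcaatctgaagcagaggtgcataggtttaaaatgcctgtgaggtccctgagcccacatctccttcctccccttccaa
Gzmb: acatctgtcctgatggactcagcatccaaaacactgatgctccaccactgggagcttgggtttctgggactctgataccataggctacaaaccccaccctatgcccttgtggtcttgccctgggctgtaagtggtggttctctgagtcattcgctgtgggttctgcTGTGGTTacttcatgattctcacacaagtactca
Gzma: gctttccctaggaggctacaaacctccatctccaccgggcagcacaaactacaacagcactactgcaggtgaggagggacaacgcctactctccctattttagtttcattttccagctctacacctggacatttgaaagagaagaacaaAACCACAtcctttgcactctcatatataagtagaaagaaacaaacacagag
The windows are chr14:56234658-56234857 for Gzmc, chr14:56132594-56132793 for Gzmd, chr14:56120626-56120825 for Gzme, chr14:56211408-56211607 for Gzmf, chr14:56262335-56262534 for Gzmb and chr13:113100982-113101181 for Gzma, all on the minus strand. RefSeq promoter windows of 300 bases, from 250 before to 50 after the start, were found for 8 of 8 members. In these windows Gzmd and Gzme were 93.4% identical, Gzmc was 82.7% identical to each of them, and Gzmf was 73.5% to 77.3% identical to the other three. Gzmb was only 43.3% to 46.9% identical to Gzmc, Gzmd, Gzme and Gzmf, its neighbours. AACCACA on either strand was in 6 of the 8 windows and in 5.27% of 32817 promoters. TGANTCA, the AP-1-type motif, was in the Gzmb window and in 7.81% of promoters. AGGTGTGA, a T-box-type motif, and TATAAA were in none of the 8 windows, against 1.27% and 13.6% of promoters. The motifs were chosen after the sequences were seen, and a match describes letters only.

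Which classes carried these genes was asked first. CD8 T and NK cells carried them, Gzmk at higher levels in the former. Regulatory T (Treg) cells held Gzmb at levels within the range of CD8 T cells. Myeloid cells were near the level of cells without the leukocyte gene Ptprc, and above it in MC38. In an edgeR quasi-likelihood fit of class sums with library as a block, 6 of 8 members differed between NK and CD8 T cells after Benjamini-Hochberg adjustment, against 5.63% of all genes. Of these 5 were higher in NK cells (2.87% of all genes) and 1 was lower (2.76%). Gzma was higher in NK cells by 3.51 on the log2 scale (SE 0.50, adjusted p = 0.000135), Gzmc by 3.29 (SE 0.77, adjusted p = 0.0135) and Gzmd by 3.02 (SE 0.60, adjusted p = 0.0032). Gzme and Prf1 were also higher in NK cells, and Gzmk was lower by log2 -3.23 (SE 0.41, adjusted p = 3.44e-05). Gzmb (log2 1.02, adjusted p = 0.0556) and Gzmf (log2 0.43, adjusted p = 0.645) did not pass, but Gzmb was called in 8 of 12 alternatives (adjusted p from 1.82e-06 to 0.319) and Gzmf in 0 of 12. Without the Lrrc25-/- B16F10 library, Gzmc, Gzmd and Gzme no longer passed (adjusted p = 0.0780, 0.0717 and 0.0526), and without the WT MC38 library Gzmc did not (adjusted p = 0.0661). With DESeq2 the adjusted p was 0.135 for Gzmd and 0.301 for Gzme.

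**Figure D1:**
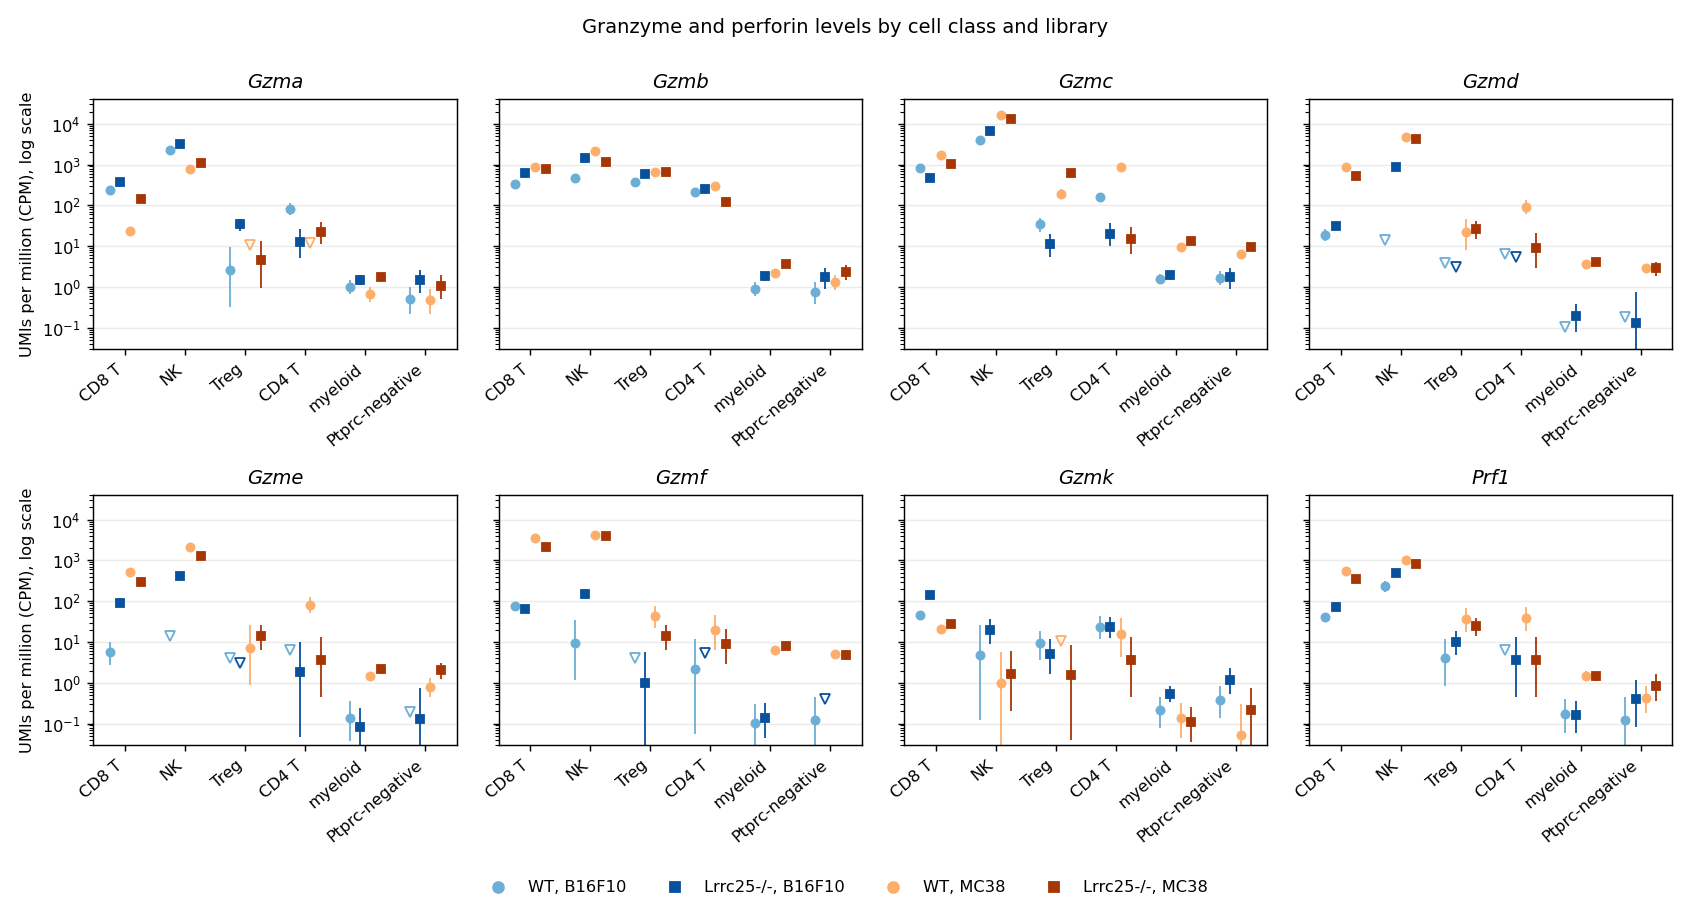
Level of each gene (CPM of the class, log scale) in 6 cell classes and 4 libraries; bars are exact Poisson 95% intervals and open triangles mark the limit that a count of 0 allows. Gzmb keeps to 124 CPM or more in all 4 lymphocyte classes shown, while Prf1 lies higher in every NK and CD8 T library than in any other class shown.

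Treg cells, the Foxp3+ CD4 T cells that restrain other lymphocytes, were set apart by Gzmb. Its level was 367, 573, 645 and 674 CPM in Treg cells, against 210, 247, 292 and 124 CPM in other CD4 T cells. The 2 classes did not overlap, a trait that was not counted over all genes. A UMI of Gzmb was found in 68.2%, 76.1%, 67.9% and 61.3% of Treg cells, and in 18.6% to 26.9% of other CD4 T cells. The direct contrast of Treg with CD4 T cells did not pass (log2 1.30, adjusted p = 0.0658), although 6 of 12 alternatives called it, DESeq2 among them (adjusted p = 0.0202). With edgeR 0 of the 8 members passed, against 0.743% of all genes, while 2 members had an unadjusted p under 0.05. Against CD8 T cells, 7 of 8 members were lower in Treg cells, against 7.09% of all genes called and 3.51% called lower, and Gzmb was the exception (log2 -0.27, adjusted p = 0.708). In CD4 T cells 7 of 8 members were lower than in CD8 T cells, against 1.75% of all genes called and 0.816% called lower, with Gzmc the exception (adjusted p = 0.127). Of these calls, Gzmc in Treg cells and Gzma, Gzmb, Gzmd and Gzmk in CD4 T cells missed the threshold when some library was left out (highest adjusted p = 0.274).

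Perforin was low in the Treg cells: Prf1 was at 3.96, 10.01, 36.2 and 24.5 CPM there, and lower than in CD8 T cells by log2 -3.63 (SE 0.37, adjusted p = 5.51e-06). T cells that met none of these gates, 243, 464, 146 and 369 cells with at least 2 UMIs of the CD3 genes, also carried the members and entered no fit. Their Gzmb was 356, 455, 681 and 344 CPM and their Gzmc 391, 285, 1344 and 992 CPM. The 8 genes made up 0.0980%, 0.114%, 0.417% and 0.183% of their UMIs, less in each library than the share in CD8 T or NK cells given below.

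Myeloid cells were lower than CD8 T cells for 8 of 8 members, against 55.8% of all genes called in that contrast and 26.2% called lower. Their Gzmb was 0.92, 1.82, 2.18 and 3.56 CPM, against 0.75, 1.71, 1.33 and 2.32 CPM in Ptprc-negative cells. In MC38 the 8 genes made up 0.00256% (WT) and 0.00348% (Lrrc25-/-) of myeloid UMIs, against 0.00175% and 0.00237% in Ptprc-negative cells. Whether a UMI of a member in myeloid cells is background was not tested. At 1000 UMIs per cell, at most 1.23% of Ptprc-negative cells held a UMI of any given member, the reference for the shares below. Gzmc was found in 1.83% of thinned myeloid cells of Lrrc25-/- MC38. The median depth of Ptprc-negative cells was 9554.5 to 17252 UMIs.

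The second question was how the tumor model bore on these genes. CD8 T cells from MC38 tumors carried far more Gzmd, Gzme, Gzmf and Prf1 than those from B16F10 tumors, and less Gzma and Gzmk, while Gzmb did not pass the test. The fit over 4 libraries with genotype as a term called 7 of 8 members (5 higher in MC38, 2 lower), against 53.9% of all genes (27.7% higher, 26.3% lower). The median absolute log2 difference was 2.60 over the members and 0.83 over all genes tested. Model, day of collection and library pair cannot be told apart. The fit scales libraries by TMM, with factors of 0.803, 0.868, 1.21 and 1.19 in CD8 T cells and 0.913, 0.906, 1.08 and 1.12 in NK cells. CPM and thinned shares lack that scaling, so they place MC38 higher against B16F10 than the fitted log2 differences do. The share of all genes whose libraries did not overlap between models was not counted, so non-overlap below only describes the members.

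Perforin, the pore former, was at 40.7 and 72.7 CPM in CD8 T cells of the B16F10 libraries and at 539 and 341 CPM in those of MC38. Every MC38 library was above every B16F10 library, and the difference was log2 2.42 (SE 0.27, adjusted p = 6.14e-07). At 1000 UMIs per cell, Prf1 was found in 3.70%, 5.44%, 37.2% and 24.3% of CD8 T cells. Gzmb was at 336 (95% interval 310 to 364), 617 (592 to 642), 867 (836 to 898) and 788 (765 to 812) CPM, and its difference between models did not pass (log2 0.33, SE 0.24, adjusted p = 0.240).

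The cluster genes beside Gzmb showed the widest range. Gzmf was at 74.8 and 66.3 CPM in CD8 T cells of B16F10 tumors and at 3639 and 2154 CPM in MC38 (log2 4.79, SE 0.26, adjusted p = 1.26e-11). Gzmd was at 19.0, 31.0, 878 and 514 CPM (log2 4.20, SE 0.29, adjusted p = 6.39e-10). Gzme was at 5.58, 92.4, 509 and 298 CPM (log2 2.96, SE 0.56, adjusted p = 0.000167), and with DESeq2 its adjusted p was 0.103. By CPM, without TMM scaling, the models did not overlap for these 3 genes. The same held for Gzmc and for Gzmb, which did not pass, and the trait was not counted over all genes. Gzmc was at 823, 464, 1696 and 1026 CPM, a smaller difference (log2 0.57, SE 0.22, adjusted p = 0.0308) that passed in 6 of 12 alternatives and missed the threshold without the Lrrc25-/- B16F10 library (adjusted p = 0.669) or the WT MC38 library (adjusted p = 0.709).

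The tryptase genes of chromosome 13 ran the other way. Gzma was at 232 (210 to 255), 374 (355 to 394), 23.3 (18.5 to 29.0) and 145 (135 to 155) CPM in CD8 T cells, lower in MC38 by log2 -2.78 (SE 0.33, adjusted p = 1.19e-06). Gzmk was at 45.7 (36.4 to 56.8), 141 (130 to 154), 20.4 (15.9 to 25.7) and 28.0 (23.7 to 32.8) CPM, lower by log2 -2.34 (SE 0.25, adjusted p = 2.88e-07). Both genes were higher in each B16F10 library than in either MC38 library. Their calls held under all 12 alternatives.

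In NK cells 6 of 7 tested members were called, 5 higher in MC38 and 1 lower, against 30.4% of all genes (15.9% higher, 14.5% lower). Gzma was at 2232 and 3113 CPM in B16F10 and at 770 and 1095 CPM in MC38, lower in MC38 by log2 -1.80 (SE 0.17, adjusted p = 5.16e-05). Gzmc was at 3918 and 6815 CPM in B16F10 and at 16420 and 13063 CPM in MC38 (log2 1.22, SE 0.21, adjusted p = 0.00156). By CPM neither gene overlapped between models, nor did Prf1, Gzmd, Gzme or Gzmf, while Gzmb did overlap. In MC38 Gzmc alone made up more than 1% of the UMIs of NK cells. Prf1 was at 233, 502, 1023 and 801 CPM (log2 1.07, SE 0.31, adjusted p = 0.0207), and missed the threshold without the WT B16F10 library (adjusted p = 0.147) or the WT MC38 library (adjusted p = 0.133). Gzmf was higher by log2 5.48 (SE 0.52, adjusted p = 5.16e-05), Gzmd by 3.98 (SE 0.95, adjusted p = 0.00878) and Gzme by 3.16 (SE 0.87, adjusted p = 0.0171). With DESeq2 the adjusted p was 0.131 for Gzmd and 0.177 for Gzme. Gzmb, at 475, 1437, 2196 and 1153 CPM, did not pass (log2 0.62, adjusted p = 0.296), and Gzmk was filtered out for low counts.

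At 1000 UMIs per cell, Gzmc was found in 19.2%, 16.2%, 82.3% and 47.5% of NK cells and in 4.94%, 3.68%, 24.4% and 14.5% of CD8 T cells. The shares before thinning were 19.4%, 20%, 85.6% and 55.4% in NK cells and 9.68%, 8.64%, 36.6% and 28.2% in CD8 T cells. Thinning left out 10, 10, 1 and 3 NK cells and 5, 26, 4 and 11 CD8 T cells that held fewer UMIs. Gzma was found in 63.5%, 60%, 29.0% and 36.6% of thinned NK cells. The NK median depth differed between models, so the thinned shares are the ones compared here.

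**Figure D2:**
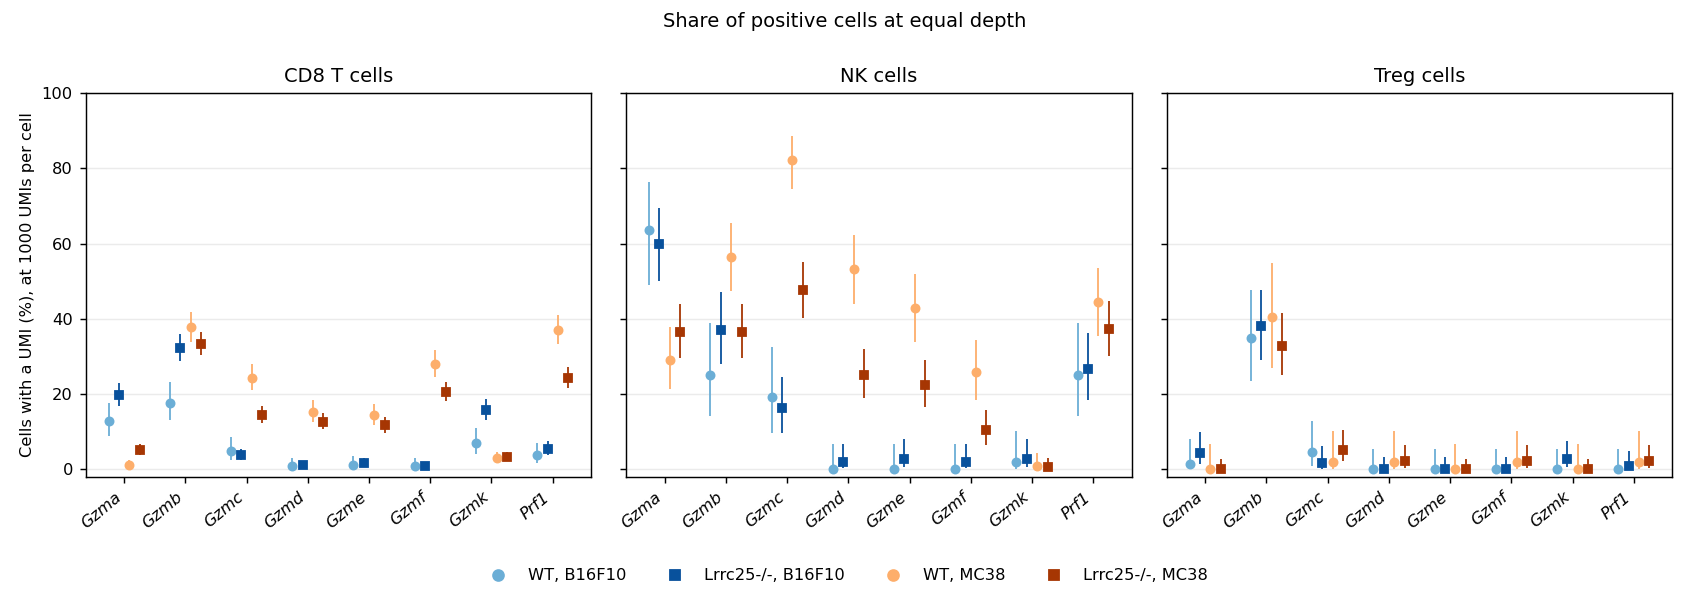
Share of CD8 T, NK and Treg cells with at least 1 UMI of each gene (percent) after every cell was thinned to 1000 UMIs; bars are exact binomial 95% intervals. Gzmc to Gzmf and Prf1 lie higher in MC38 (orange) and Gzma in B16F10 (blue), while in Treg cells only Gzmb exceeds 10%.

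Markers of other cell types varied across the same libraries. The 9 macrophage markers summed to 1263, 605, 253 and 564 CPM in CD8 T cells, with all 9 detected in every library, and to 641, 796, 280 and 433 CPM in NK cells. The 4 melanoma markers summed to 390 and 312 CPM in CD8 T cells of B16F10 tumors and to under 1 CPM in MC38. In cells with no macrophage marker UMI, 18 of the 23 model calls over all classes held, 4 could not be recomputed, and that of Gzmc in CD8 T cells did not pass (log2 0.23, adjusted p = 0.398).

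In Treg cells 3 of 4 tested members were called higher in MC38 (49.4% of all genes were called, 24.8% higher), and in CD4 T cells 2 of 4 were called lower (35.8% of all genes, 18.5% lower). These calls rest on few cells: a single cell held 94.2% and 95.04% of the Gzmc UMIs of Treg cells in the WT and Lrrc25-/- MC38 libraries. Gzmd had 0 UMIs in both B16F10 Treg libraries and 6 and 17 in MC38. It entered the fit through MC38 alone, so its direction was fixed in advance. Prf1 had 3, 10, 10 and 16 UMIs in Treg cells and was called in 5 of 11 alternatives. In myeloid cells 5 of 7 were called higher, against 62.6% of all genes called and 32.3% called higher, at levels near those of Ptprc-negative cells.

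The third question was whether loss of Lrrc25 went with a change in these genes. Within a tumor model each genotype is a single pool, so the values describe these libraries and carry no test; the intervals cover counting error only. A member was marked where the CPM differed by at least 1.5-fold after adding 1 CPM, reached 20 CPM in either library and summed to at least 50 UMIs. In CD8 T cells of B16F10 tumors 6 of 8 members were higher in Lrrc25-/- (10.8% of all genes) and 1 was lower (4.62%). In those of MC38 tumors 1 of 8 was higher (4.05%) and 5 were lower (3.7%).

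Gzma was the member whose CD8 T cell level was past the size rule upward in both models. Its Lrrc25-/- to WT ratio was 1.62 (1.45 to 1.81) in B16F10 and 6.22 (4.94 to 7.93) in MC38. At 1000 UMIs per cell it was found in 12.8% of WT and 19.7% of Lrrc25-/- CD8 T cells in B16F10, and in 1.15% and 5.13% in MC38. Gzmk had ratios of 3.09 (2.44 to 3.94) and 1.37 (1.03 to 1.85), and was found in 6.996% and 15.7% of thinned cells in B16F10 and in 2.95% and 3.24% in MC38. With library scaling by TMM, the B16F10 difference of Gzma was log2 0.58, just short of the size rule; that scaling shifted all genes by log2 -0.11.

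Gzmb and Prf1 did not keep a direction across models. The ratio of Gzmb was 1.83 (1.68 to 2.01) in B16F10 and 0.909 (0.868 to 0.953) in MC38. That of Prf1 was 1.78 (1.38 to 2.34) in B16F10 and 0.632 (0.593 to 0.675) in MC38. Macrophage marker RNA in CD8 T cells was lower in Lrrc25-/- in B16F10 and higher in MC38; in cells with no such UMI the B16F10 difference was log2 0.43 for Gzmb, short of the size rule, and 0.87 for Prf1, and the MC38 difference of Prf1 was log2 -0.51, also short of it. Gzmb was found in 17.7% and 32.2% of thinned CD8 T cells in B16F10 and in 37.8% and 33.4% in MC38.

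Gzmc to Gzmf were lower together in Lrrc25-/- CD8 T cells of MC38 tumors. Their ratios were 0.605 (0.583 to 0.628) for Gzmc, 0.586 (0.556 to 0.617) for Gzmd, 0.585 (0.547 to 0.626) for Gzme and 0.592 (0.577 to 0.607) for Gzmf. Summed over the 4 genes, the level was 6721 CPM in WT and 3991 CPM in Lrrc25-/-. In cells with no macrophage marker UMI, Gzmf fell short of the size rule (log2 -0.47).

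In B16F10 the same genes rested on very few CD8 T cells. The ratio of Gzmc was 0.564 (0.526 to 0.604), and 0.699 without the highest cell of each library. That of Gzmf was 0.886 (0.717 to 1.10), and 5.30 without that cell. Gzmd had 34 UMIs in WT, 94.1% of them from a single cell, and 121 in Lrrc25-/-, and Gzme had 10 and 361. The 10 highest cells held 97.4% and 80.0% of the Gzmc UMIs in the WT and Lrrc25-/- B16F10 libraries, against 39.5% and 36.9% in MC38. Of the Gzmf UMIs they held 100% and 98.1% in the B16F10 libraries, and 35.3% and 31.8% in those of MC38.

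**Figure D3:**
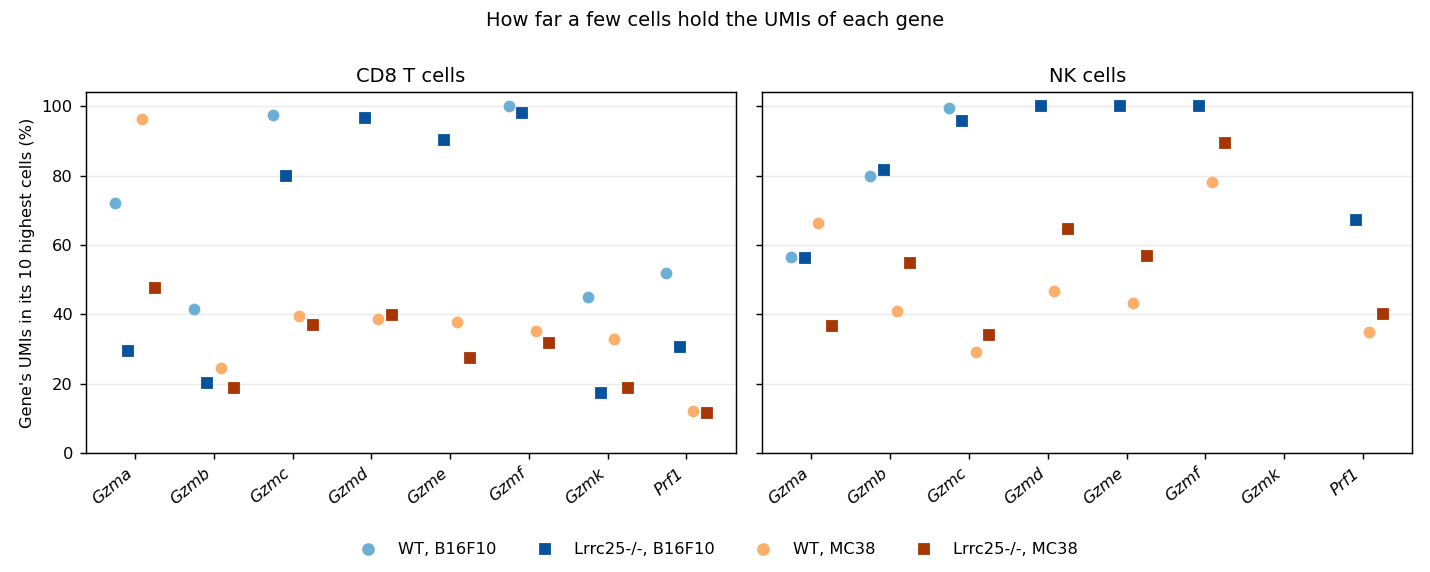
Share of each gene's UMIs (percent) that its 10 highest cells hold, in CD8 T and NK cells of each library, for genes with at least 50 UMIs there. In B16F10 (blue) the 10 highest CD8 T cells hold at least 80.0% of the UMIs of Gzmc to Gzmf, and in MC38 (orange) less.

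NK cells of B16F10 tumors had 6 of 7 measured members higher in Lrrc25-/- (15.8% of all genes) and 0 lower (8.11%). Gzmb had a ratio of 3.02 (2.45 to 3.77), Prf1 of 2.16 (1.58 to 3.00), Gzmc of 1.74 (1.61 to 1.88) and Gzma, short of the size rule, of 1.40 (1.26 to 1.55). Without the highest cell the ratio of Gzmb was 1.92. Gzmd and Gzme had no UMI in the 62 WT NK cells, which allows up to 4.84% positive cells. Against a floor of 3 counts in the WT library, their Lrrc25-/- CPM was 60.6-fold and 29.3-fold higher. Only 2.61% and 4.35% of Lrrc25-/- NK cells held a UMI of them, so these folds are not lower bounds over cells. The highest Lrrc25-/- cell of each gene held 69.5% of those Gzmd UMIs, 70.3% of the Gzme UMIs and 95.7% of the Gzmf UMIs. Without the highest Gzmf cell of each library the ratio of Gzmf fell from 15.8 to 1.31. In thinned NK cells Gzmb was found in 25.0% of WT and 37.1% of Lrrc25-/- cells, and Prf1 in 25.0% and 26.7%.

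In NK cells of MC38 tumors no member was past the size rule upward (10.2% of all genes were) and 2 of 7 were lower (5.93%). These were Gzmb, with a ratio of 0.525 (0.491 to 0.562), and Gzme, with 0.606 (0.567 to 0.647). The shares of positive cells were lower for more genes: at 1000 UMIs Gzmc was found in 82.3% of WT and 47.5% of Lrrc25-/- NK cells, although its CPM ratio was 0.796. The median NK cell carried 2.37% of its UMIs in the 8 genes in WT and 0.741% in Lrrc25-/-, against 0.436% and 0.415% in B16F10. Gzma, with a ratio of 1.42 (1.30 to 1.56), was again higher in Lrrc25-/- and short of the size rule; without the highest cell of each library the ratio was 1.62.

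**Figure D4:**
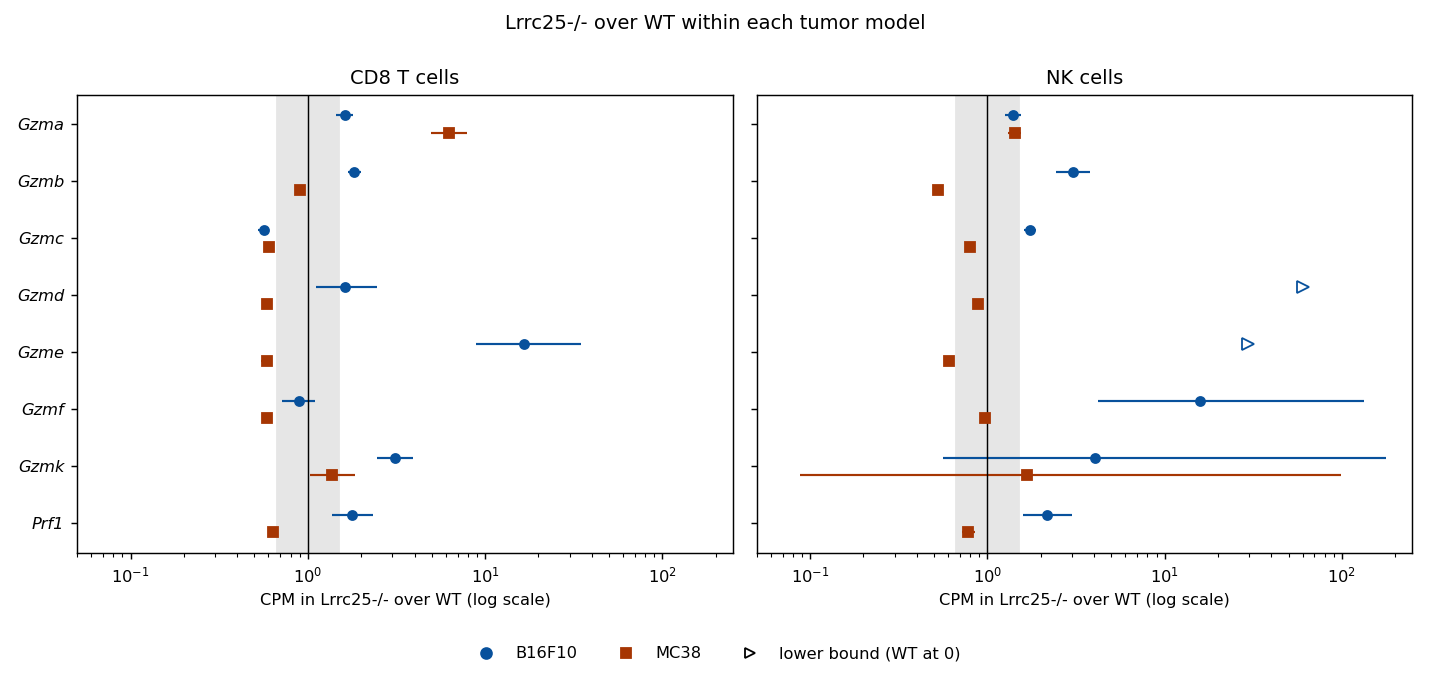
Ratio of CPM in Lrrc25-/- over WT (log scale) for each gene in CD8 T and NK cells, in B16F10 (blue circles) and MC38 (orange squares). Bars are exact 95% intervals for counting error, and the grey band spans less than 1.5-fold. Open triangles, labelled lower bound, are folds against a floor of 3 counts where WT had no UMI. They cover counting error only and are not lower bounds over cells. Gzma lies above 1 in all 4 comparisons, and Gzmc to Gzmf lie below 1 in MC38.

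Over both models together the genotype was tested with tumor model as a term, which leaves 1 residual degree of freedom. The spread behind these p-values therefore comes mostly from other genes. In CD8 T cells edgeR called 0 of 8 members, against 0.0635% of 11032 genes; 433 genes and 4 members had an unadjusted p under 0.05, and DESeq2 called 0 members and 0.0181% of genes. The lowest adjusted p was that of Gzma (log2 1.56, SE 0.33, adjusted p = 0.0853), followed by Gzmk (log2 1.02, SE 0.24, adjusted p = 0.257) and Gzmc (log2 -0.82, SE 0.22, adjusted p = 0.372). Gzme differed by log2 0.93 (SE 0.56, adjusted p = 1.00). Gzma was called with no filter on low counts (adjusted p = 1.91e-07) and in cells with no macrophage marker UMI (adjusted p = 9.56e-09), and its adjusted p ranged from 9.56e-09 to 1.00 over the alternatives. Gzmk was called under the same settings (adjusted p = 0.00236 and 0.00119), and Gzmc in cells with no macrophage marker UMI (adjusted p = 0.0118). Prf1 (log2 -0.02) and Gzmb (log2 0.32) had adjusted p = 1.00.

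In NK cells 0 of 7 members were called (0.057% of all genes), 1 had an unadjusted p under 0.05, and Gzma differed by log2 0.47 (SE 0.16, adjusted p = 0.713). In Treg cells 0 of 4 were called (0.409% of all genes; 1 member had an unadjusted p under 0.05), and in myeloid cells 0 of 7 (0.0272%; 2 members). DESeq2 called 0 members in these 3 classes, and 0.0712%, 0% and 0.0952% of their genes.

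In CD4 T cells 1 of 4 tested members was called, against 0.356% of all genes called and 0.0647% called lower. This was Gzmc, lower in Lrrc25-/- by log2 -4.47 (SE 0.52, adjusted p = 4.32e-14), with 73 and 11 UMIs in WT and Lrrc25-/- B16F10 and 219 and 8 in MC38. A single cell held 50.7% and 54.8% of the UMIs in the 2 WT libraries, and without the highest cell of each library the difference was log2 -3.63 (adjusted p = 1.30e-07). With doublets kept it was log2 -3.23 with adjusted p = 1.00, and with DESeq2, which called 0.0808% of genes, log2 -4.47 with adjusted p = 5.47e-08. Between 3.39% and 14.1% of CD4 T cells held a Gzmc UMI.

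Within each model few members reached the minimum in the other T cells. In Treg cells Gzmb was 1 of 1 measured member in B16F10 and past the size rule upward, with a ratio of 1.56 (1.35 to 1.81; 15.9% of all genes were); in cells with no macrophage marker UMI it was log2 -0.13. In MC38 it was Gzmc, 1 of 2, at 3.27 (2.45 to 4.45; 7.95% of all genes), most of it from the single cells named above. In CD4 T cells Gzmc was past the rule downward in B16F10, 1 of 2 members (8.19% of all genes), and Gzmc and Gzmb were in MC38, 2 of 2 (12% of all genes).

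Which of these genes shared a cell was then described in cells thinned to 1000 UMIs, as the number of cells with both genes over the number that the product of the 2 shares gives. Cells of 1 library are not replicates, so there is no test. In CD8 T cells Gzma and Gzmk were found together in 7 cells against 2.17 given by the product in WT B16F10, 44 against 21.1 in Lrrc25-/- B16F10 and 4 against 1.59 in Lrrc25-/- MC38. In WT MC38 it was 1 cell against 0.21.

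Gzmb was found with any of Gzmc to Gzmf in 141 CD8 T cells of WT MC38 against 86.2 and in 170 of Lrrc25-/- MC38 against 97.1. Prf1 was found with them at 1.43 and 1.66 times the product there. Gzmd and Gzme shared 66 and 81 CD8 T cells against 13.4 and 14.2, a ratio that reads shared between their similar transcripts could raise. Gzma and the 4 cluster genes were found together at 0.38 times the product in WT MC38 and 0.94 times in Lrrc25-/- MC38. In WT B16F10 they shared 0 cells against 1.66, and in Lrrc25-/- B16F10 the ratio was 0.78.

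In NK cells Gzma and Gzmc to Gzmf were found together at 0.47, 0.69, 0.83 and 0.39 times the product, below 1 in all 4 libraries. In Lrrc25-/- MC38 19.4% of Gzma-positive NK cells held a UMI of Gzmc to Gzmf, against 67.2% of Gzma-negative ones. Gzmb and Prf1 were found together at 2.15, 1.54, 1.22 and 1.41 times the product.

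**Figure D5:**
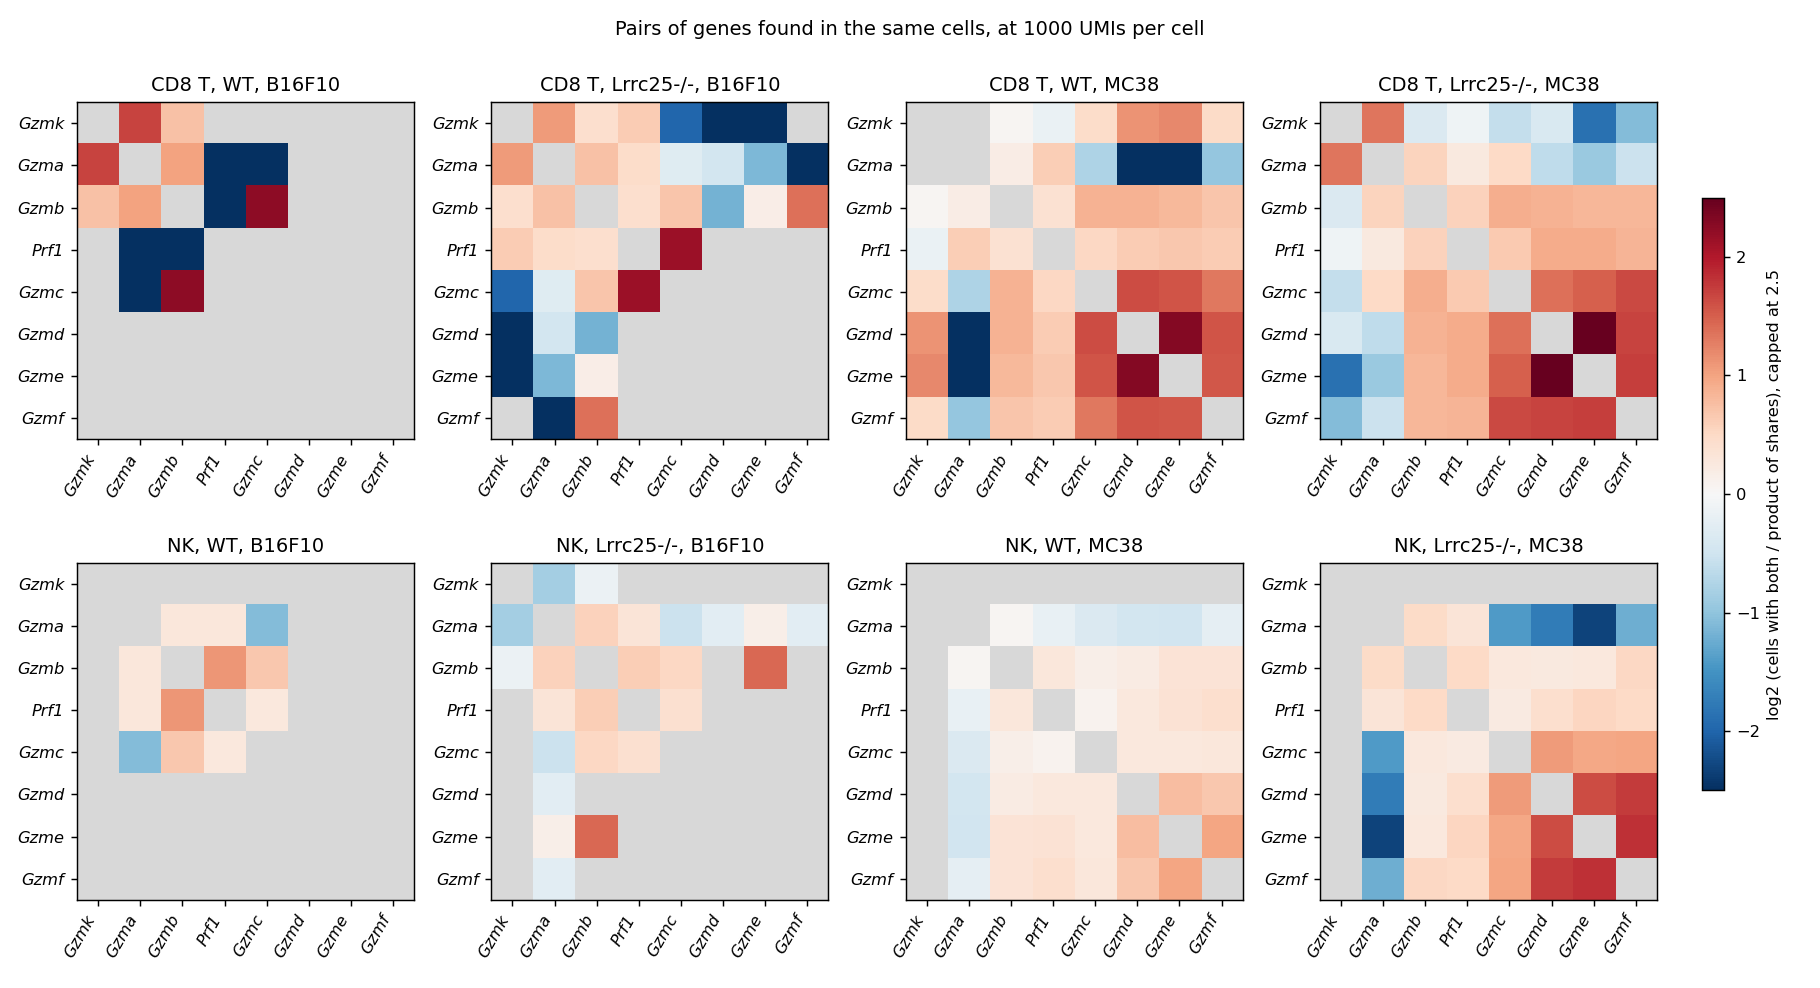
Log2 of the number of cells with both genes over the number given by the product of their shares, for each pair in CD8 T (top) and NK cells (bottom) of each library, at 1000 UMIs per cell; grey marks the diagonal and pairs with under 1 cell given by the product. In MC38, Gzmc to Gzmf form a red block with Gzmb and Prf1 beside it, and Gzma is blue or pale against them.

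Individual cells could carry a large load. At least 3 of the 8 genes were found in 2.88%, 6.32%, 25.2% and 19.5% of thinned CD8 T cells and in 17.3%, 17.1%, 62.9% and 36.6% of thinned NK cells. All of Gzmc to Gzmf were found in 25 WT and 15 Lrrc25-/- NK cells of MC38 tumors (20.2% and 8.20%) and in 47 and 31 CD8 T cells (7.69% and 3.24%). The highest cell spent 11.4% of its UMIs on the 8 genes, an NK cell of Lrrc25-/- MC38, and over whole classes the share was 0.158% to 0.817% in CD8 T cells and 0.687% to 3.13% in NK cells.

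State genes of T cells were read in the same thinned CD8 T cells. Tcf7, which marks naive-like and stem-like T cells, shared 1 cell with Gzmc to Gzmf in Lrrc25-/- MC38 against 14.0 given by the product, and 0 cells against 2.61 in WT MC38. Klrg1, a receptor of short-lived effector cells, shared 16 cells with Gzma against 4.93 and 10 with Gzmk against 3.93 in Lrrc25-/- B16F10. There it also shared 16 cells with Gzmb against 8.05 and 4 with Prf1 against 1.36, and 0 with Gzmc to Gzmf against 0.956. In WT MC38, 5 of 6 Klrg1-positive cells held a UMI of Gzmc to Gzmf, against 2.24. Pdcd1, the gene of the checkpoint receptor PD-1, shared 34 and 43 cells with Gzmc to Gzmf in the MC38 libraries against 23.5 and 30.7. Other genes of exhausted T cells varied there: Lag3 shared 41 and 68 cells against 42.2 and 65.7, and Tox 50 and 31 against 60.1 and 35.0. Havcr2 shared 37 cells against 32.5 in WT MC38. In the WT and Lrrc25-/- B16F10 libraries Lag3 shared 3 and 6 cells against 1.12 and 1.87, and Tox 0 and 1 against 0.642 and 2.22.

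The genes around these proteases were read from lists of 40 genes in all. In CD8 T cells the genotype fit called 1 of 39 tested, Gzmg, another cluster granzyme. It was lower in Lrrc25-/- (log2 -2.38, SE 0.31, adjusted p = 0.000315) at 1.12, 0, 581 and 114 CPM. With Gzmg near 0 in B16F10, its call rests on the MC38 pair, 1 pool per genotype, which carries no test on its own. Its transcript is 82.4% to 87.9% identical to those of Gzmd, Gzme and Gzmf. Of all genes 0.0635% were called in that fit. Between tumor models 12 were higher and 17 lower in MC38 CD8 T cells, where 27.7% of all genes were higher and 26.3% lower. Of 10 granule maturation genes 6 were lower, among them Srgn, the proteoglycan that holds granzymes in the granule (log2 -1.56, SE 0.23, adjusted p = 1.13e-05), and Ctsc, which activates progranzymes (log2 -0.56, SE 0.22, adjusted p = 0.0341), and 1 was higher. Of the same 10 genes 6 were higher in myeloid than in CD8 T cells, and the macrophage markers in CD8 T cells summed to 1263 and 605 CPM in B16F10 and 253 and 564 CPM in MC38; their part in the result was not tested. Of 9 exocytosis genes 3 were higher, among them Rab27a, which docks granules (log2 1.33, SE 0.23, adjusted p = 7.07e-05), and 3 lower.

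Of 4 serpins, inhibitors that protect cells from granzymes, 2 were higher in MC38 CD8 T cells, with Serpinb9b at log2 2.87 (SE 0.29, adjusted p = 1.31e-07), and Serpinb9, an inhibitor of granzyme B, did not pass (log2 0.50, adjusted p = 0.0643). Of 9 transcriptional regulators 4 were higher and 5 lower: Tbx21, which encodes T-bet, was higher (log2 1.72, SE 0.22, adjusted p = 2.94e-06) and Eomes lower (log2 -0.83, SE 0.24, adjusted p = 0.00602). Of 5 other effector genes 1 was higher and 2 lower, with Tnf at log2 -2.14 (SE 0.28, adjusted p = 3.09e-06). In NK cells 0 of 35 tested list genes were called for genotype, against 0.057% of all genes, and 4 were higher and 12 lower in MC38, against 15.9% and 14.5% of all genes.

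Across 37 class and library sums, the genes most like each member were found by the correlation of log2(CPM + 1) among 10462 genes. Classes and depth are shared by these points, so the values describe them only. Gzmb was most like Nkg7 (r = 0.96), Thy1, Zap70, Trbc1 and Cd27, and Gzma like Klra9 (r = 0.83), Xcl1, Eomes, Klra7 and Samd3. Gzmk was most like Nrn1 (r = 0.78), Dapl1, Lad1, Sh2d1a and Ccl1. Prf1 was most like Dscam (r = 0.92), Klrc2, Sult2b1, Samd3 and Dapk2, and the sum of Gzmc to Gzmf like Dscam (r = 0.92), Prf1, Nrgn, Tmprss6 and Eomes.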

How the data were processed

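Droplet 3' single-cell libraries of 4 tumor pools were analysed from the deposited count matrices, whose values are unnormalized UMI counts. Per the submitters' processing notes the build was mm10; aligner, counter and cell calling, not given in the sources used here, could not be assessed. Cells with at least 300 genes, 500 UMIs and at most 20% mitochondrial UMIs were kept. Scrublet (scanpy 1.11.5) set its own threshold at 0% to 2.07%, so the highest scores were removed at 0.5% per 1000 cells instead (480 to 1494 cells), leaving 9319, 11543, 15792 and 15309.

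Classes were gated on marker UMIs without any of the 8 genes; gate thresholds were set after cell numbers were seen. Klra4 was dropped from the NK markers because Ptprc-negative MC38 cells carry it. Counts were summed per class and library (at least 50 cells in every library for a fit; gamma-delta T cells were too few) and given as CPM. CPM from 3' ends is not scaled by length, so each gene is compared with itself. Intervals are exact Poisson or Clopper-Pearson at 95%; they and the floor of 3 counts cover counting error only. Differences over libraries were fitted with edgeR 4.0.16 (quasi-likelihood, TMM, filterByExpr, Benjamini-Hochberg at 0.05), with DESeq2 1.42.0 as an alternative. Libraries are single pools, so p-values refer to these libraries only. In the genotype and tumor model fits, with 1 residual degree of freedom, edgeR takes most of a gene's spread from that of other genes. A small p-value there is therefore not a measure of how well that gene's difference repeats between pools. Tested on simulated data, the CD8 T genotype fit recovered 38.1% of genes altered 2-fold and 92.4% of those altered 4-fold, of 10699 genes.

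All 8 members are described. The genes named as like a member are the 5 with the highest Pearson correlation over class sums of at least 20 cells, among genes reaching 20 CPM, gate markers left out. The members and lists were chosen with earlier results of these data known. Alternatives were other scaling, filters, gates, doublets kept, cells with no macrophage marker UMI, and a library or the highest cell left out.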

Additional observations from a re-analysis of the deposited data

Results flagged for a closer look

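In CD8 T cells 3 genes had Lrrc25-/- to WT ratios past 1.5-fold in opposite directions in the 2 tumor models, and the difference between the models was not tested, since each ratio rests on a single pair of pools. Gzmd was at 1.63 in B16F10 and 0.586 in MC38, with 94.1% of the 34 WT B16F10 UMIs in a single cell. Gzme was at 16.6 in B16F10, from 10 and 361 UMIs, and 0.585 in MC38. Prf1 was at 1.78 in B16F10 and 0.632 in MC38.

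In NK cells the same was seen for 2 genes, again with no test of the difference. Gzmb was at 3.02 in B16F10 (1.92 without the highest cell of each library) and 0.525 in MC38. Gzme was 29.3-fold higher in B16F10 against a floor of 3 counts in a WT library with no UMI, and at 0.606 in MC38. In B16F10 only 4.35% of Lrrc25-/- NK cells held a UMI of it.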

How the results depend on the processing

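No paired analysis was possible because each genotype and tumor model has 1 library and the labels give no replicate numbers; the genotype fit has 1 residual degree of freedom, so no library could be left out of it. Genotype calls of members over all classes numbered 1, and 2 with DESeq2 size factors, 7 with no filter on low counts, 4 in cells with no macrophage marker UMI and 0 with no tumor model term. Tumor model calls numbered 23, 15 with DESeq2, and 23 to 27 with a library left out. Class calls numbered 28, and 21 to 29 with a library left out. Members past the size rule numbered 15 in B16F10, 8 at 2-fold and 25 with no minimum level, and 11 in MC38, 4 at 2-fold and 22 with no minimum. In cells with no macrophage marker UMI the difference of Gzmf in NK cells of B16F10 turned to log2 -0.075 and that of Gzmb in Treg cells of B16F10 to -0.13; the cause was not tested. Single-gene values kept their direction and side of the threshold in 308 of 328 class, 241 of 268 model and 179 of 208 size rule recomputations. NK cells of WT B16F10 (62) and Treg cells of WT MC38 (53) were the smallest groups fitted in their classes.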

Other observations

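Gamma-delta T cells, too few for a fit (13, 33, 11 and 54 cells), held Gzmb at 29.4, 420, 570 and 98.9 CPM. Their Gzmc stood at 3763 CPM in WT MC38, all of it from a single cell.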
